A study of Mus musculus with 11 samples.

Results

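Toll-like receptors (TLRs) are the membrane receptors with which macrophages (macs) detect microbial lipids, proteins and nucleic acids. The 10 genes described here, Tlr1 to Tlr9 and Tlr13, were picked by name from the 27998 genes of the count tables, and all 10 were present in the tables of all 11 libraries. TLR2 pairs with TLR1 or TLR6 at the cell surface to bind bacterial lipopeptides, TLR4 binds lipopolysaccharide together with CD14 and MD-2, and TLR5 binds flagellin, whereas TLR3, TLR7, TLR8, TLR9 and TLR13 sit in endosomes and bind RNA or DNA. All except TLR3 signal through the adaptor MyD88, TLR3 signals through TRIF, TLR4 uses both adaptors, and the kinases and transcription factors that follow induce cytokines and chemokines. Resident macs of different tissues are known to carry different sets of these receptors.

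The libraries came from a study of the transcription factor ZEB2 in tissue macs and were made from sorted single cells on the 10x Genomics droplet platform, which counts the 3′ ends of transcripts with unique molecular identifiers (UMIs). Microglia (brain), colonic macs (CMs), Kupffer cells (KCs, liver), alveolar macs (AMs, lung) and splenic macs (SMs) each gave 1 WT library (CRE-negative Zeb2fl/fl mice, in which loxP sites flank Zeb2) and 1 Zeb2KO library (Zeb2fl/fl mice with a CRE transgene). A further WT KC library was from CRE-negative Nr1h3fl/fl mice, in which loxP sites flank Nr1h3. Adult mice of both sexes on a C57Bl/6 background were used, with littermates as controls, and no treatment was given. The labels name Fcgr1-cre for every Zeb2KO library, whereas according to the methods the liver driver was Clec4f-cre, which is active in KCs and a minor share of B cells, and the lung driver Itgax-cre, which is active in AMs and dendritic cells. Beside macs, Fcgr1-cre is active in B cells, T cells and dendritic cells. KCs were sorted as Clec4F+CD64+F4/80+ cells, AMs as CD11c+SiglecF+F4/80+CD64+ cells, microglia as CD45int F4/80+CD64+ cells, and CMs and SMs as CD64+F4/80+ cells without Ly6C, Ly6G and SiglecF.

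After removal of outlying barcodes and of clusters of other cell types, the libraries held 2830 to 6974 cells and 7411267 to 42993762 UMIs. Median depth ran from 2168 UMIs per cell in WT SMs to 9231 in WT CMs. Levels are given as UMIs per 1000000 UMIs (CPM), summed over the cells of a library, and intervals in parentheses are exact 95% Poisson or binomial intervals that cover counting error only. With 1 library per tissue and genotype, a difference between genotypes within a tissue had no replicate check, and only shifts common to the 5 tissue pairs, or differences between tissues, could be tested. Summed markers were highest in their own tissue for each mac type, at 25200 CPM for the microglia list in WT microglia, 16280 CPM for the KC list in WT KCs and 10840 CPM for the AM list in WT AMs. Zeb2 itself was 475.5 CPM in WT and 1747 CPM in Zeb2KO microglia, 754 and 918 CPM in SMs, 312 and 480.5 CPM in AMs, 385 and 784 CPM in KCs and 375 and 476 CPM in CMs. The recombined Zeb2 allele still gives a transcript with its 3′ end, so these counts did not check the deletion. The CRE lines delete Zeb2 incompletely outside the brain, so a Zeb2KO library mixes cells without ZEB2 and cells that kept an intact allele, and its levels are those of the mixture. KC and AM libraries were sequenced on one instrument and held Ddx3y at 76.8 to 151 CPM with Xist at or near 0, and the other libraries were sequenced on another instrument and held Xist at 1153 to 1878 CPM with Ddx3y at 0. Tissue, instrument and the sex of the cells therefore cannot be told apart in comparisons between these sets of tissues, but they matched within each pair.

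Tlr2, the shared partner of the lipopeptide receptors, was the member with the most UMIs, at 46666 over the 11 libraries. The gene lies at chr3:83836272-83841767 on the minus strand of GRCm38. In the WT libraries Tlr2 stood at 81.5 CPM in SMs, 52.9 in KCs, 115 in microglia, 567 in AMs and 85.2 in CMs. In the Zeb2KO libraries it stood at 69.5 CPM in SMs, 49.4 in KCs, 182 in microglia, 372 in AMs and 113 in CMs. Both AM libraries were above all others, and both genotypes gave the same order of tissues. In edgeR's quasi-likelihood test with the genotype as a covariate, AMs exceeded microglia by 1.82 ± 0.29 (log2, SE; adjusted p = 0.00252), CMs by 2.09 ± 0.29 (adjusted p = 0.00276), SMs by 2.88 ± 0.30 (adjusted p = 0.000822) and KCs by 3.16 ± 0.30 (adjusted p = 0.000702). Among the remaining tissues microglia passed over SMs and KCs, and CMs over KCs, while microglia and CMs (adjusted p = 0.47), CMs and SMs (0.0593), and SMs and KCs (0.454) did not differ beyond their spread in the same edgeR fit. The share of cells with a Tlr2 UMI, after each cell was thinned to 1000 UMIs, was 42.7% (41.5 to 43.9) of WT AMs and 31.1% (29.95 to 32.3) of Zeb2KO AMs, against 4.45% to 15.2% in the other libraries. In B-cell-like cells of the WT spleen library, at a median of 2368 UMIs against 2318 in the SMs thinned beside them, 1.83% had a Tlr2 UMI. Of the SMs 7.83% (6.85 to 8.89) did. In 119 cells of an erythroid-like cluster of that library, at a median of 2912 UMIs, the share was 7.56% (3.52 to 13.9). That cluster kept more of the mac markers (mean log2 −0.68 against the clusters kept) than the main B-cell-like cluster (−2.93). Clusters 7 and 12, pooled with the main one as B-cell-like cells, stood at −0.61 and −0.91. Mac RNA was thus not excluded in the erythroid-like cells or in part of the B-cell-like cells. Neither share is a clean background for SMs. In the WT liver library the share was 5.16% (4.48 to 5.90) of KCs, at a median depth of 5319 UMIs. Endothelium-like cells that the Clec4F sort had also returned stood at 4.22% (2.12 to 7.42), at a median of 6880 UMIs. Their clusters 8 and 10 kept mac markers, at −0.62 and −0.07 (mean log2 against the clusters kept). KC RNA in these cells was not excluded, so their share is no clean background for KCs. Without thinning 82.9% of WT AMs had a Tlr2 UMI.

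**Figure D1:**
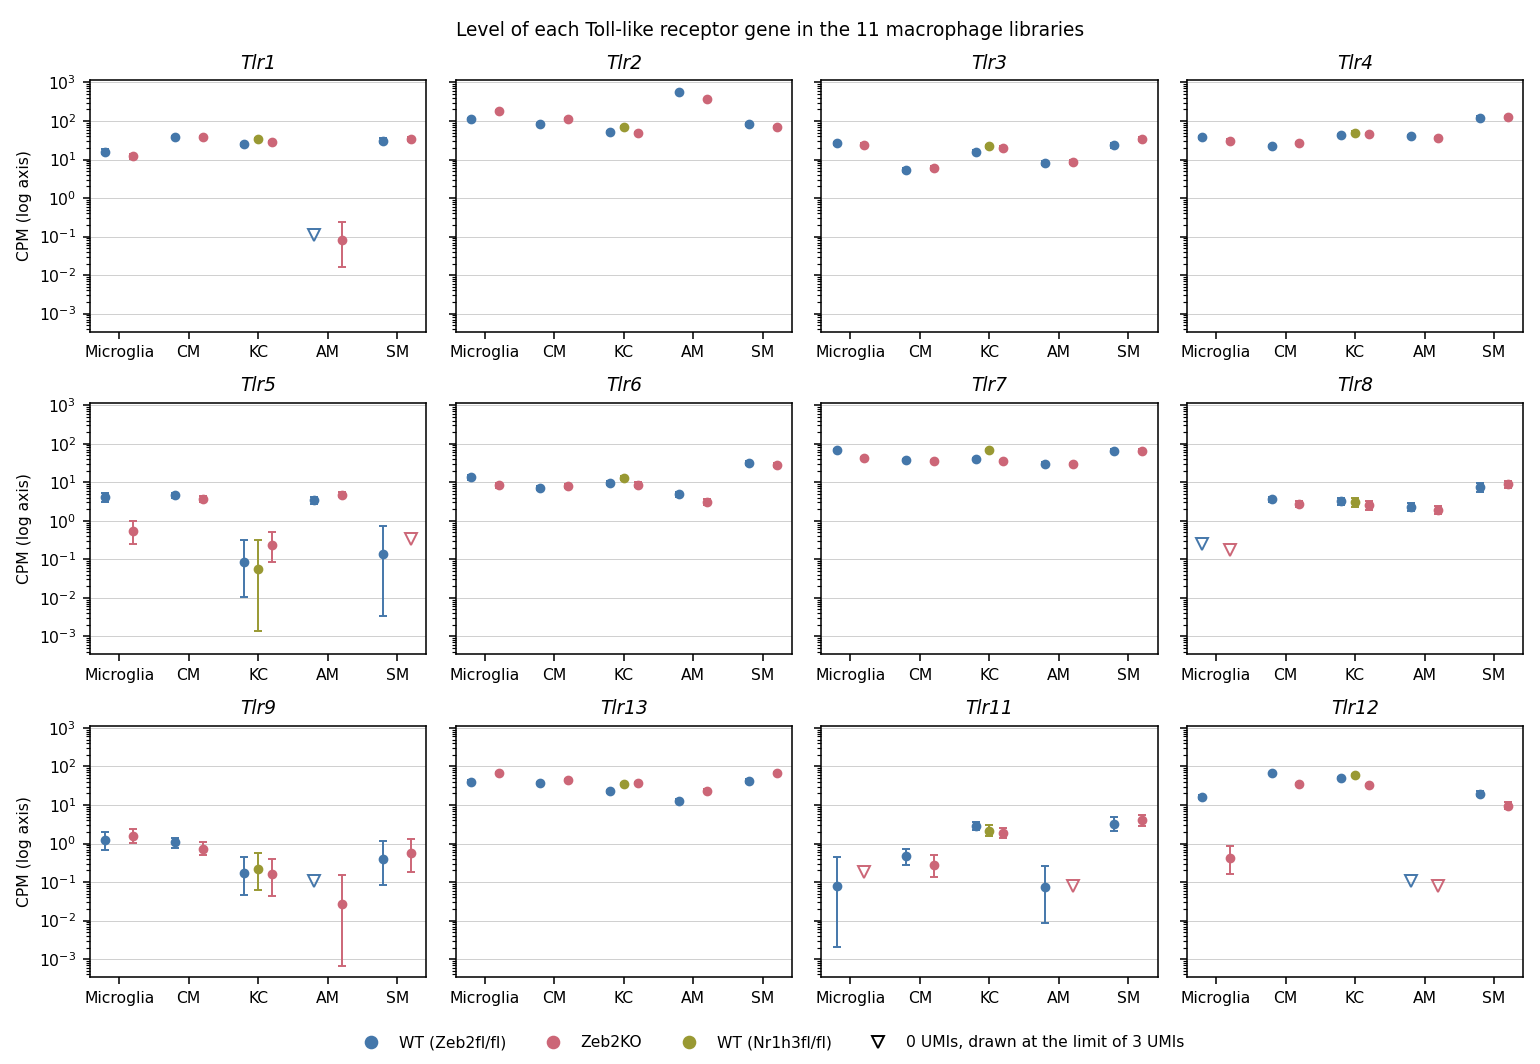
Level of each Toll-like receptor gene in the 11 libraries, in CPM on a log axis, with the 10 genes described here and the related Tlr11 and Tlr12. Points are single libraries, bars are exact Poisson 95% intervals, and open triangles mark libraries with 0 UMIs at the limit that 3 UMIs would give. Tlr2 is highest in both AM libraries (567 and 372 CPM), Tlr4 and Tlr6 in both SM libraries, and Tlr1 is at or near 0 in AMs only.

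The promoter windows of Tlr2 and Tlr13 are shown because ZEB2 is known to bind elements with the letters CACCT, often as CACCTG, and because Tlr2 was the most counted member and Tlr13 was higher in Zeb2KO in all 5 pairs. Each is the RefSeq window of 300 bases around the annotated start on GRCm38.p6, written 5′ to 3′ on the strand of the gene, with CACCT or CACCTG on either strand in capitals (AGGTG is CACCT on the other strand). The Tlr2 window is chr3:83841559-83841858 on the minus strand and the Tlr13 window is chrX:106143025-106143324 on the plus strand.
Tlr2: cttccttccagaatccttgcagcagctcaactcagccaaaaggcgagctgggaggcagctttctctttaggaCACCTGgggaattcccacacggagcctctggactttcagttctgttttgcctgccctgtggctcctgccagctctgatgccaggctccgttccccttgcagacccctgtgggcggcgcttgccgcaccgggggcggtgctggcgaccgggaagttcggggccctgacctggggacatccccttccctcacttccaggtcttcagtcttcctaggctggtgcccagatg
Tlr13: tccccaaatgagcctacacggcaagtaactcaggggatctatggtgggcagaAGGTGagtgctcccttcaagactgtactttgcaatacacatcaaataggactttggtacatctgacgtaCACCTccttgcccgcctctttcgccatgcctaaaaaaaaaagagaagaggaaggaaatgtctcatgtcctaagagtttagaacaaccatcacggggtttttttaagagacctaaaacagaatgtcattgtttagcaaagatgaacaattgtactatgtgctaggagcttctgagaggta
The window table held 8 of the 10 genes, in 10 windows, and Tlr4 and Tlr7 are named only. CACCT, on either strand, lay in a window of Tlr1, Tlr2, Tlr9 and Tlr13, and 51.9% of all 32851 windows held it. CACCTG, which contains CACCT, lay in a window of Tlr1, Tlr2 and Tlr9, and 20.2% of all windows held it. A match is a description of the letters and says nothing of binding, and windows without one hold no such letters in this stretch only.

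Tlr1 and Tlr6, the genes of the partners of TLR2, lie next to each other on chromosome 5 (chr5:64924679-64933563 and chr5:64952031-64960097, minus strand) and were lowest in AMs, where Tlr2 was highest. Tlr1 had 0 UMIs in WT AMs and 3 UMIs (0.0805 CPM) in Zeb2KO AMs. The other WT libraries held Tlr1 at 15.9 CPM in microglia, 31.0 in SMs, 24.8 in KCs and 38.4 in CMs, which was at least 145-fold to at least 351-fold above the level that 3 UMIs would give in WT AMs. Zeb2KO levels were 12.2 CPM in microglia, 34.6 in SMs, 28.9 in KCs and 38.0 in CMs. AMs were thus the single mac type without more than a trace of Tlr1 in either genotype, and every other tissue passed over AMs in edgeR (adjusted p of 0.000135 to 0.000205). CMs exceeded microglia by 1.77 ± 0.30 (log2, SE; edgeR adjusted p = 0.00563), SMs by 1.14 ± 0.30 (adjusted p = 0.0179) and KCs by 1.13 ± 0.29 (adjusted p = 0.0228), while CMs, SMs and KCs did not differ beyond their spread. Thinned to 1000 UMIs, 3.65% (2.48 to 5.18) of the B-cell-like cells in WT spleen had a Tlr1 UMI against 2.94% (2.34 to 3.64) of WT SMs, with overlapping intervals. Whether the B-cell-like cells carry Tlr1 of their own was not tested, so their share does not measure a background for SMs.

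Tlr6 was highest in SMs, at 31.8 CPM (27.9 to 36.2) in WT and 27.9 CPM (24.5 to 31.6) in Zeb2KO. The WT libraries of microglia, CMs, KCs and AMs held 13.4, 7.23, 9.62 and 4.85 CPM of Tlr6, and the Zeb2KO libraries held 8.27, 7.98, 8.64 and 3.03 CPM. The SM libraries did not overlap with any other. In edgeR, SMs exceeded microglia by 1.41 ± 0.21 (log2, SE; adjusted p = 0.00218) and AMs, the lowest tissue, by 2.69 ± 0.22 (adjusted p = 0.000372), and microglia, KCs and CMs did not differ from each other beyond their spread.

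Tlr4, the lipopolysaccharide receptor (chr4:66827584-66930284, plus strand), was likewise highest in SMs. Of the WT libraries, SMs held 123 CPM, KCs 44.1, AMs 40.7, microglia 37.6 and CMs 22.1. Of the Zeb2KO libraries, SMs held 130.2 CPM of Tlr4, KCs 44.99, AMs 36.1, microglia 30.6 and CMs 26.2. No tissue other than the spleen reached 50 CPM, and the order of tissues was the same in both genotypes. SMs exceeded KCs by 1.23 ± 0.15 (log2, SE; edgeR adjusted p = 0.00298), AMs by 1.46 ± 0.15 (adjusted p = 0.000727), microglia by 1.81 ± 0.15 (adjusted p = 0.000382) and CMs by 1.99 ± 0.15 (adjusted p = 0.000822). KCs passed over microglia and CMs, and AMs over CMs, and the neighbours KCs and AMs, AMs and microglia, and microglia and CMs did not differ beyond their spread. The thinned share of WT SMs with a Tlr4 UMI was 11.5% (10.3 to 12.7), against 3.53% (2.38 to 5.03) of the B-cell-like and 3.36% (0.923 to 8.38) of the erythroid-like cells of that library. In WT liver the endothelium-like cells held 34.6 CPM (26.6 to 44.3) of Tlr4. The 35 hepatocyte-like cells held 40.1 CPM (16.1 to 82.7), from 7 UMIs. Both values overlapped the KCs. The B-cell-like cells of that library were lower, at 21.1 CPM (11.8 to 34.9). For mac markers the hepatocyte-like cluster 11 stood at −0.01 and the B-cell-like cluster 9 at −0.75 (mean log2 against the clusters kept). The endothelium-like cells kept mac markers as well, so none of these is a clean background.

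Tlr5, the flagellin receptor (chr1:182954788-182976044, plus strand), was low everywhere. Its WT levels were 4.05 CPM in microglia (50 UMIs), 4.58 in CMs (197 UMIs), 0.0863 in KCs (2 UMIs), 3.43 in AMs (94 UMIs) and 0.135 in SMs (1 UMI). Zeb2KO libraries held 0.532 CPM in microglia (9 UMIs), 3.63 in CMs, 0.238 in KCs, 4.80 in AMs and 0 UMIs in SMs. CMs, AMs and microglia each passed over KCs and over SMs in edgeR (adjusted p of 0.0121 to 0.0441), and did not differ from each other beyond their spread. In WT and Zeb2KO AMs Tlr5 was at least 10.2-fold and at least 14.4-fold above the level that 3 UMIs would give in Zeb2KO SMs.

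Among the endosomal receptors, Tlr3, which binds double-stranded RNA (chr8:45395665-45411080, minus strand), divided the tissues into a higher and a lower set. WT microglia, KCs and SMs held 26.3, 16.0 and 23.2 CPM of Tlr3, and WT CMs and AMs held 5.35 and 8.13 CPM. Zeb2KO microglia, KCs and SMs held 24.3, 19.9 and 34.6 CPM, and Zeb2KO CMs and AMs held 6.11 and 8.61 CPM. The 2 sets did not overlap in either genotype. SMs, microglia and KCs each passed over CMs and AMs in edgeR, with log2 differences of 1.11 ± 0.18 (KCs over AMs; adjusted p = 0.00432) to 1.91 ± 0.18 (SMs over CMs; adjusted p = 0.00123), and no pair inside a set differed beyond its spread. The endothelium-like cells of the WT liver library held 20.3 CPM (14.3 to 28.04) of Tlr3, not below the 16.0 CPM of WT KCs. Tlr1 stood at 22.5 CPM (16.2 to 30.6) in those cells against 24.8 CPM (22.8 to 26.9) in WT KCs. As those cells kept mac markers, they are no clean background, and the KC levels were not shown to be background.

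Tlr7, a receptor for single-stranded RNA (chrX:167304929-167330558, minus strand), varied least between tissues by the number of tissue pairs that passed. In the WT libraries it stood at 66.1 CPM in SMs, 39.7 in KCs, 68.5 in microglia, 30.5 in AMs and 37.9 in CMs. In the Zeb2KO libraries Tlr7 stood at 66.1 CPM in SMs, 35.4 in KCs, 42.5 in microglia, 29.2 in AMs and 35.8 in CMs. AMs were lowest in both genotypes, and the microglia value differed most between them. SMs passed over AMs by 0.87 ± 0.20 (log2, SE; edgeR adjusted p = 0.0142) and microglia over AMs by 0.68 ± 0.20 (adjusted p = 0.0274), and the other 8 tissue pairs did not pass. Both pairs that passed set libraries with Xist against AMs with Ddx3y. For this X-linked gene tissue, instrument and sex cannot be told apart in them. In other cells of the same WT libraries Tlr7 was 70.5 CPM (47.6 to 100.7) in the erythroid-like and 34.5 CPM (27.4 to 42.8) in the B-cell-like cells of spleen. In the endothelium-like cells of liver it was 39.04 CPM (30.5 to 49.2). The erythroid-like and endothelium-like cells, and part of the B-cell-like cells, kept mac markers. Whether another cell type reaches the SM and KC levels was thus not settled. The WT liver library from Nr1h3fl/fl mice held 67.9 CPM (64.2 to 71.8) of Tlr7 against 39.7 CPM (37.1 to 42.3) in the Zeb2fl/fl WT library, a difference of the same size as those that passed between tissues.

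Tlr8, its neighbour on the X chromosome (chrX:167242696-167264329, minus strand) and also an RNA receptor, had 0 UMIs in both microglia libraries. WT CMs, KCs, AMs and SMs held 3.63, 3.19, 2.30 and 7.56 CPM of Tlr8, and Zeb2KO CMs, KCs, AMs and SMs held 2.75, 2.497, 1.91 and 8.92 CPM. In WT SMs it was at least 31.1-fold above the level that 3 UMIs would give in WT microglia. Every tissue passed over microglia in edgeR (adjusted p of 0.000389 to 0.000999), and SMs passed over CMs (log2 difference 0.98 ± 0.31, adjusted p = 0.0497), KCs (1.27 ± 0.32, adjusted p = 0.0268) and AMs (1.72 ± 0.32, adjusted p = 0.00894).

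Tlr9, which binds unmethylated CpG DNA (chr9:106222598-106226883, plus strand), was the member with the fewest UMIs, at 136 over all libraries. It was at most 1.60 CPM in any library (Zeb2KO microglia, 27 UMIs), at 1.22 CPM in WT microglia and 1.07 CPM in WT CMs, and had 0 UMIs in WT AMs and 1 UMI in Zeb2KO AMs. Microglia and CMs passed over KCs and AMs in edgeR, by 2.87 ± 0.63 for microglia over KCs (log2, SE; adjusted p = 0.0126) and 2.56 ± 0.62 for CMs over KCs (adjusted p = 0.0336). SMs and KCs also passed over AMs, where the WT library had no Tlr9 UMI, and microglia and CMs did not differ beyond their spread (adjusted p = 0.674).

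Tlr13, which binds bacterial ribosomal RNA (chrX:106143204-106160493, plus strand), was present in all libraries and lowest in AMs. WT microglia held 39.6 CPM (36.2 to 43.3), WT CMs 38.2 (36.3 to 40.1), WT KCs 22.4 (20.6 to 24.5), WT AMs 13.04 (11.7 to 14.5) and WT SMs 41.7 (37.2 to 46.6). Zeb2KO microglia held 69.1 CPM (65.2 to 73.1), Zeb2KO CMs 44.1 (42.0 to 46.4), Zeb2KO KCs 36.4 (34.1 to 38.9), Zeb2KO AMs 23.7 (22.2 to 25.3) and Zeb2KO SMs 67.6 (62.3 to 73.2). Each Zeb2KO library was above the Zeb2fl/fl WT library of its tissue, but the interval of Zeb2KO KCs overlapped that of the Nr1h3fl/fl WT KCs, which held 34.9 CPM (32.2 to 37.7). Microglia, CMs and SMs passed over AMs in edgeR by 1.38 ± 0.23, 1.37 ± 0.23 and 1.31 ± 0.23 (log2 with SE, adjusted p = 0.00309, 0.00547 and 0.00513), and the other 7 tissue pairs did not pass. The pairs that passed all set libraries with Xist against AMs with Ddx3y. For this X-linked gene tissue, instrument and sex cannot be told apart in them.

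Over all 10 genes and all 10 pairs of tissues, 58 of 100 contrasts passed in edgeR (58%), while 41.4% of the 139130 contrasts over all genes tested did. The members that passed numbered 10 of 10 for SMs against AMs (44.5% of all 13913 genes), 8 for AMs against microglia (54.8%), 6 for AMs against CMs (40.2%), 6 for AMs against KCs (38.9%), 6 for KCs against microglia (41.2%) and 6 for SMs against microglia (51.1%). They numbered 5 for SMs against CMs (45%), 5 for KCs against CMs (18.6%), 3 for CMs against microglia (40.9%) and 3 for SMs against KCs (39%). The tissue fit took both genotypes of a tissue as its 2 libraries, so the spread behind these p-values is that between the genotype pairs after the common shift, and nothing in the labels says how many mice a library pooled.

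The comparison of WT and Zeb2KO libraries addressed the receptors in mice with Zeb2 deleted in macs, with Zeb2KO libraries taken whole. Among members at 20 CPM or more in the higher library (5 in microglia, CMs and KCs, 4 in AMs and 7 in SMs), 0 changed by 1 or more on the log2(CPM + 1) scale, while 8.34% of all such genes did in microglia, 3.48% in SMs, 11.7% in AMs, 4.67% in KCs and 1.58% in CMs. The counting intervals of these log2 ratios had a median half-width of 0.14 and a largest half-width of 0.28. The median log2 ratio of the members was −0.11 in microglia (−0.09 for all genes), −0.11 in AMs (−0.31), 0.08 in SMs (−0.02), 0.20 in CMs (0.05) and 0.03 in KCs (0.02). In AMs the median of all genes thus lay below 0 when libraries were scaled by total UMIs, and it was −0.01 with TMM factors, with which 1 member reached 1 in size, Tlr13 in AMs (1.09). S100a8 and S100a9 stood at 14190 and 9361 CPM in Zeb2KO AMs and at 22.9 and 0.0364 CPM in WT AMs, and their part in this scaling was not tested.

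Tlr13 had the highest log2 ratio of the considered members in 4 of 5 tissues, at 0.79 (0.65 to 0.96) in microglia, 0.68 (0.54 to 0.86) in KCs, 0.82 (0.68 to 1.04) in AMs and 0.68 (0.50 to 0.90) in SMs, and 0.20 (0.11 to 0.31) in CMs. These ratios exceeded those of 94.1%, 94.1%, 94.5%, 95.3% and 80.5% of the genes considered in microglia, KCs, AMs, SMs and CMs. Of all genes tested, 5.01% were higher in Zeb2KO in all 5 pairs, as Tlr13 was. The exact two-sided sign test over the 5 pairs gave p = 0.0625, the smallest it can give. In edgeR with the tissue as a block, Tlr13 had a log2 fold change of 0.71 ± 0.15 (SE), an unadjusted p of 0.00208 and an adjusted p of 0.211, so the shift did not pass. DESeq2 with the same design gave 0.70 and an adjusted p of 0.00727, a call that 2.6% of all genes (362) shared, whereas edgeR called 0 of 13913 genes (0%) with 1615 at an unadjusted p under 0.05. The choice of WT library mattered in the liver. Tlr13 was 34.9 CPM (32.2 to 37.7) in the Nr1h3fl/fl WT KCs, 0.62 (log2) above the Zeb2fl/fl WT KCs, and against it the Zeb2KO KCs differed by 0.06. With that library in place of the Zeb2fl/fl one the edgeR log2 fold change was 0.60 ± 0.18 with an adjusted p of 0.306. Thinned to 1000 UMIs, Tlr13 UMIs were seen in 4.42% of WT and 6.48% of Zeb2KO microglia, 3.59% and 4.49% of CMs, 2.14% and 4.42% of KCs, 1.35% and 2.62% of AMs, and 4.02% and 6.39% of SMs. In endothelium-like cells of the WT liver library the share was 3.07% (1.33 to 5.95), so the 2.14% (1.71 to 2.65) of WT KCs was not above it, and in those of the Zeb2KO liver library it was 1.61% (0.651 to 3.30), below the 4.42% (3.79 to 5.12) of Zeb2KO KCs. In WT spleen the B-cell-like cells stood at 1.46% (0.758 to 2.54) and the erythroid-like cells at 0.840% for Tlr13. By level those erythroid-like cells held 35.3 CPM (19.7 to 58.2), which overlapped the 41.7 CPM (37.2 to 46.6) of WT SMs. In Zeb2KO spleen the 66 erythroid-like cells stood at 7.58% (2.51 to 16.8), not below the SMs. The erythroid-like and endothelium-like cells, and part of the B-cell-like cells, kept mac markers, so none is a clean background.

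Tlr2 had log2 ratios of opposite sign in different tissues. Its log2 ratio was 0.65 (0.57 to 0.75) in microglia and 0.40 (0.34 to 0.47) in CMs, and −0.60 (−0.64 to −0.57) in AMs, −0.23 (−0.39 to −0.07) in SMs and −0.10 (−0.22 to 0.01) in KCs. With TMM factors the AM value was −0.32 and the microglia value 0.73, and no sign of Tlr2 changed. Over the 5 pairs its log2 fold change in edgeR was 0.08 ± 0.18 (adjusted p = 0.884). Thinned shares differed in the same direction as the levels, from 9.89% of WT to 15.2% of Zeb2KO microglia and from 42.7% to 31.1% of AMs.

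**Figure D2:**
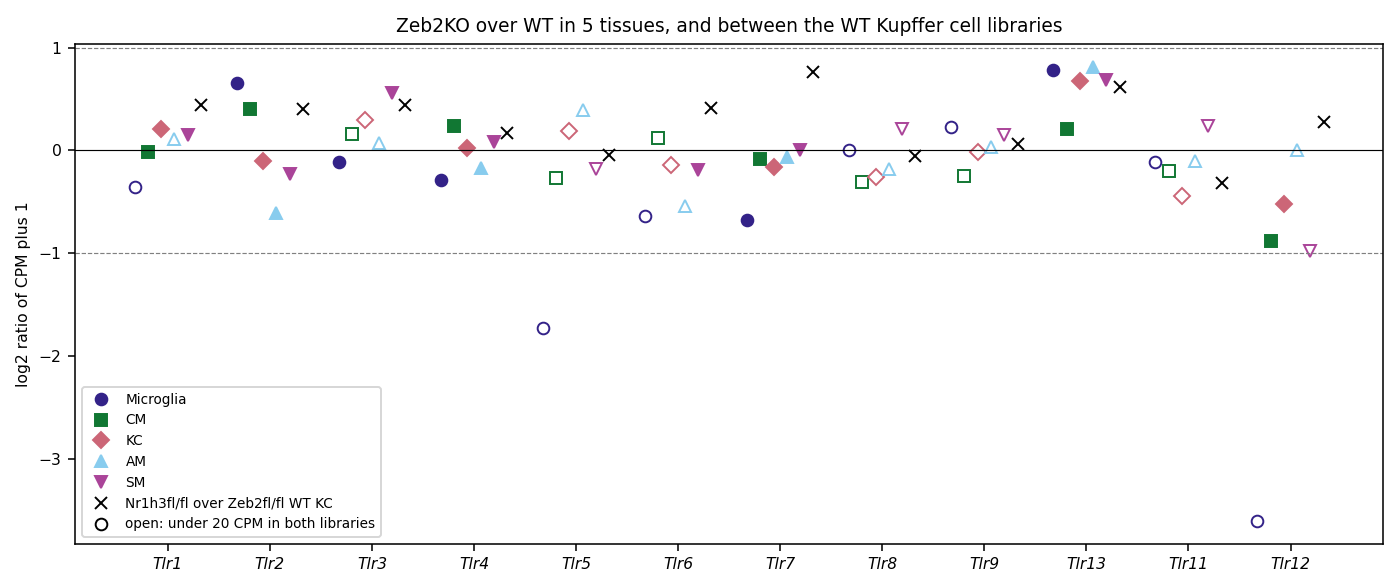
Log2 ratio of CPM + 1 of Zeb2KO over WT for each gene in the 5 tissues, with the ratio of the Nr1h3fl/fl over the other WT KC library as crosses. Filled symbols mark genes at 20 CPM or more in the higher library, and dashed lines mark a log2 ratio of 1 in size. The 5 Tlr13 values lie between 0.20 and 0.82, Tlr2 spans −0.60 to 0.65, and no filled symbol of the 10 genes is beyond the dashed lines.

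Tlr7 in microglia was 0.68 lower in Zeb2KO (log2; interval −0.84 to −0.54), while the other 4 tissues lay between −0.16 and 0.00. The edgeR log2 fold change over the 5 pairs was −0.15 ± 0.13 (adjusted p = 0.675), and −0.03 without the microglia pair. Tlr4 had log2 ratios of 0.08 in SMs, 0.03 in KCs, −0.29 in microglia, −0.17 in AMs and 0.24 in CMs and a common fold change of 0.03 ± 0.09 (adjusted p = 0.909), and with TMM factors the signs of Tlr4 in KCs and AMs and of Tlr7 in AMs and SMs turned. Tlr3 was 0.56 (0.30 to 0.85) higher in Zeb2KO SMs and 0.30 higher in Zeb2KO KCs, with 0.16, 0.07 and −0.11 in CMs, AMs and microglia and a common fold change of 0.26 ± 0.11 (adjusted p = 0.437). Tlr6 was lower by 0.63 in microglia and 0.54 in AMs at levels under 20 CPM, and its common fold change was −0.26 ± 0.13 (adjusted p = 0.499). Tlr5 in microglia was 4.05 CPM (3.01 to 5.34) in WT and 0.532 CPM (0.243 to 1.01) in Zeb2KO, below the level considered. For Tlr1, Tlr5, Tlr8 and Tlr9 the common fold changes were 0.04 ± 0.20, −0.43 ± 0.65, −0.15 ± 0.22 and 0.09 ± 0.41 on the log2 scale, with adjusted p-values of 0.975, 0.816, 0.813 and 0.955 in edgeR. None of the 10 therefore passed over the 5 pairs in edgeR, as 0 of all 13913 genes tested did, so this is no result about the members.

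The 2 WT liver libraries differed from each other without any deletion of Zeb2. All 6 members at 20 CPM or more were higher in the Nr1h3fl/fl than in the Zeb2fl/fl WT KCs, by 0.17 for Tlr4, 0.40 for Tlr2, 0.44 for Tlr3, 0.45 for Tlr1, 0.62 for Tlr13 and 0.76 for Tlr7 (log2), and the median of all genes was 0.09. None reached 1 in size, as 1.32% of all genes did. Against the Nr1h3fl/fl library, 5 of 6 members were lower in Zeb2KO KCs, by 0.92 for Tlr7 and 0.50 for Tlr2, and 0 reached 1 in size while 8.29% of all genes did. Tlr1, Tlr3, Tlr4 and Tlr13 in KCs thus had Zeb2KO levels between those of the 2 WT libraries or within 2 CPM of the higher one.

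Zeb2KO libraries held cells that clustered with WT cells and cells in clusters apart, defined as clusters whose share of the Zeb2KO library was 9 times or more that of the WT library, found without the TLR and pathway genes. The cells apart made up 99.5% of Zeb2KO microglia, 81.0% of SMs, 78.6% of KCs, 23.3% of CMs and 89.8% of AMs, and with 1 library per group a cluster of 1 library may be that library. The clusters apart as a whole are not a class of cells shown to lack ZEB2, and in KCs they include a cluster led by Cx3cr1 and Ccr2. They also include a KC cluster led by Siglecf. By qRT-PCR and flow cytometry of Zeb2 RNA, the study found Zeb2 deleted in SiglecF-positive KCs, and by genomic PCR SiglecF-negative KCs were heterozygous. In CMs the study identified cells without Zeb2 by higher Zeb2, Ms4a1 and Siglecf, and 1 CM cluster apart was led by Ms4a1. In KCs Tlr13 was 39.8 CPM (37.0 to 42.7) in the clusters apart, 25.01 CPM (21.1 to 29.5) in the other Zeb2KO cells and 22.4 CPM (20.6 to 24.5) in WT as a whole. The other Zeb2KO cells lay mostly in cluster 4 (led by Rps26-ps1 and Apoc1) and cluster 5 (cell cycle genes). These were 14.2% and 4.18% of the WT library and 5.02% and 6.6% of the Zeb2KO library. WT cells lay mostly in cluster 0 (53.8% of the WT library), so the pooled values have different cluster mixes. Within the shared clusters of 50 or more cells of each library, Tlr13 was 32.6 CPM in Zeb2KO and 22.2 CPM in WT in cluster 0, 40.2 and 26.8 in cluster 1, 14.1 and 11.9 in cluster 4, 25.3 and 21.5 in cluster 5, and 28.7 and 20.8 in cluster 12, higher in Zeb2KO in each with overlapping intervals. Tlr13 was not alone in KCs. Tlr1 (31.0 against 21.7 CPM), Tlr3 (21.4 against 15.04) and Tlr4 (47.6 against 36.0) were also higher in the clusters apart than in the other Zeb2KO cells, while Tlr2 (49.3 against 49.7) and Tlr7 (36.9 against 30.3) had overlapping intervals. The share of all genes that differed in this way was not counted, so this is no result about the members. What part the cluster mix had in these values was not tested. For Tlr13 in SMs the values were 69.4 (63.7 to 75.5), 55.4 (42.6 to 70.7) and 41.7 CPM, in AMs 24.1 (22.5 to 25.8), 20.1 (15.8 to 25.2) and 13.04 CPM, and in CMs Tlr13 was lower in the clusters apart, at 31.5 (27.8 to 35.5) against 47.9 (45.4 to 50.5) and 38.2 CPM. That value in CMs came from the cluster led by Ms4a1 and Ltb (27.6 CPM in 772 Zeb2KO cells and 27.4 CPM in 57 WT cells), while the other cluster apart, led by Iigp1 and Serpina3g, held 57.5 CPM (44.2 to 73.6). With clusters apart taken from 4 times the WT share, Tlr13 in CMs was 41.98 against 45.5 CPM with overlapping intervals. With coarser clusters the Ms4a1-led cluster was no longer apart, and Tlr13 was 54.5 CPM in the cells then apart against 43.6 CPM, again with overlap.

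In CMs the clusters apart also held less Tlr7 than the other Zeb2KO cells, at 15.9 CPM (13.3 to 18.9) against 41.7 CPM (39.3 to 44.1), and less Tlr4, at 13.9 CPM (11.5 to 16.7) against 29.9 CPM (27.9 to 32.0). WT CMs held 37.9 CPM of Tlr7 and 22.1 CPM of Tlr4. Both low values came from the Ms4a1-led cluster (Tlr7 at 11.99 CPM, Tlr4 at 10.7 CPM), whose 57 WT cells were as low, at 14.6 CPM (6.30 to 28.7) and 9.12 CPM (2.96 to 21.3), whereas the Iigp1-led cluster held 41.98 CPM of Tlr7 and 34.7 CPM of Tlr4. In the Ms4a1-led cluster mac markers stood at −1.07 and the dendritic cell list at 1.77 (mean log2 against the clusters kept). Of that list 0 genes were seen in 20% or more of its cells. With coarser clusters the Ms4a1-led cluster was no longer apart (19.3% of the Zeb2KO and 2.64% of the WT library), and the 124 Zeb2KO cells then apart, of the Iigp1-led cluster alone, held more of both than the other Zeb2KO cells, at 43.4 against 35.3 CPM of Tlr7 and 36.97 against 25.7 CPM of Tlr4, with overlapping intervals. Tlr1 in CMs went the other way, at 43.5 CPM in the clusters apart (9 times or more) against 36.3 CPM, without overlap, and Tlr2 overlapped. In AMs Tlr2 was 379 CPM (372 to 386) in the clusters apart and 312 CPM (295 to 331) in the other Zeb2KO cells, both below the 567 CPM of WT AMs. Also higher without overlap in the clusters apart were Tlr7 in AMs (30.2 against 20.1 CPM) and Tlr4 in SMs (134 against 103 CPM). The share of all genes that differed in this way was not counted in any tissue, so these are no result about the members. These pooled values have different cluster mixes. The largest cluster of the other Zeb2KO AMs was led by cell cycle genes (5.07% of the Zeb2KO and 3.23% of the WT library). WT AMs lay mostly in clusters 0 and 3 (54.7% and 24.2%). Only 17 Zeb2KO microglia lay in other clusters, too few for a comparison.

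**Figure D3:**
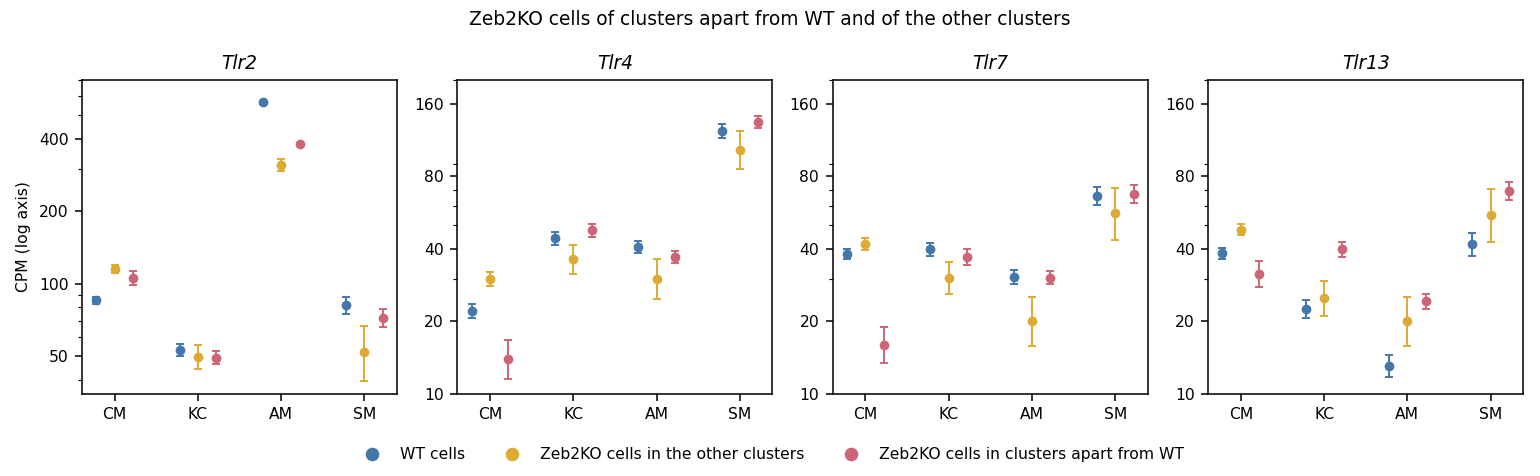
Levels of Tlr2, Tlr4, Tlr7 and Tlr13 in WT cells, in Zeb2KO cells of the clusters shared with WT and in Zeb2KO cells of the clusters apart, for CMs, KCs, AMs and SMs, in CPM on a log axis with exact Poisson 95% intervals. Each group is 1 library or a part of 1 library. In CMs Tlr7 is 15.9 CPM in the clusters apart against 41.7 and 37.9 CPM, a value that comes from the Ms4a1-led cluster, which is no longer apart with coarser clusters. In KCs Tlr13 is 39.8 CPM against 25.01 and 22.4 CPM.

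Tlr11 and Tlr12, which complete the mouse family and bind profilin of protozoa, were read beside the 10 genes. Tlr11 (chr14:50357914-50363663, plus strand) was at most 4.01 CPM in any library. Tlr12 (chr4:128615443-128618619, minus strand) stood at 16.1 CPM in WT and 0.414 CPM in Zeb2KO microglia, 67.0 and 36.0 CPM in CMs, 48.9 and 33.7 CPM in KCs, 19.8 and 9.59 CPM in SMs, and had 0 UMIs in both AM libraries. It was lower in Zeb2KO in each of the 4 tissues with a UMI, with log2 ratios of −3.60 in microglia, −0.98 in SMs, −0.52 in KCs and −0.88 in CMs. The Nr1h3fl/fl WT KCs held 59.5 CPM, above both other liver libraries.

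The genes around the receptors were taken from 4 lists. Of the co-receptors and chaperones, Ctsl (cathepsin L, an endosomal protease that processes the nucleic acid receptors) was 1266 CPM in WT and 3056 CPM in Zeb2KO microglia, a log2 ratio of 1.27. Cd14, the lipopolysaccharide co-receptor, went from 532 to 264 CPM in microglia, from 302 to 262 in CMs, from 198 to 114 in KCs and from 215 to 86.4 in SMs, but from 142 to 692 CPM in AMs, and its edgeR log2 fold change was −0.27 (adjusted p = 0.876). The 2 WT liver libraries differed in Cd14 by 0.61 (198 against 129 CPM). Hsp90b1, the chaperone gp96 that folds most TLRs, was 883 CPM in WT and 431 CPM in Zeb2KO AMs. Its log2 ratio by total UMIs was −1.03, beside a median of −0.31 for all genes there. Cd36, a lipid scavenger receptor, was 248 and 175 CPM in CMs and 30.6 and 40.3 CPM in SMs, the lowest and highest ratio of the list there. In all, 1 gene of the list was higher and 1 lower by 1 or more of 12 considered in microglia (8.34% of all genes were called in either direction), 2 and 1 of 12 in AMs (11.7%), 1 lower of 13 in SMs (3.48%), 0 of 13 in CMs (1.58%) and 0 of 14 in KCs (4.67%).

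Of the adaptors, kinases and transcription factors at 20 CPM or more in the higher library, only Irf7, an interferon regulator downstream of TLR7 and TLR9, had a log2 ratio of 1 or more in size between the Zeb2KO and the Zeb2fl/fl WT library of a tissue, with 8.51 CPM in WT and 21.4 CPM in Zeb2KO microglia (1 of 18 considered, beside 8.34% of all genes), and 0 of 16 to 21 reached that size in CMs (1.58%), KCs (4.67%), AMs (11.7%) and SMs (3.48%). Against the Nr1h3fl/fl WT KCs 1 of 17 was lower in Zeb2KO KCs (8.29%), which was Ikbke at 27.8 and 12.6 CPM, named after its values were seen. Myd88, the common adaptor, was 46.3 and 42.2 CPM in SMs, 41.1 and 53.3 in KCs, 51.8 and 46.5 in microglia, 67.3 and 33.2 in AMs and 37.1 and 42.5 in CMs. Its log2 ratio of −0.9997 in AMs was just under the size called, so that Irf7 stood alone rests on this margin. Irf7 was also the highest of the list in CMs (16.4 and 28.9 CPM) but the lowest in KCs (572 and 453 CPM). Irf8 was the lowest of the list in CMs (286 and 187 CPM) and SMs (550.1 and 343 CPM), Irak4 in microglia (27.1 and 21.2 CPM), and Irf5 the highest in AMs (29.3 and 52.7 CPM) with Chuk in KCs (30.9 and 51.5 CPM) and SMs (54.2 and 69.1 CPM). The list had a median log2 ratio of −0.52 in AMs, beside −0.31 for all genes there, and between −0.05 and 0.12 elsewhere.

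Of the negative regulators, Nfkbiz, an atypical IκB protein, was higher in Zeb2KO in 2 tissues by 1 or more (180 and 429 CPM in microglia, 27.1 and 62.2 CPM in KCs), though it was 313 and 215 CPM in SMs and 95.4 and 57.5 CPM in AMs. Nfkbia, which encodes IκBα, was 1031 and 2603 CPM in microglia, and Dusp1, a MAP kinase phosphatase, was 138 and 283 CPM in KCs but 2070.0 and 1126 CPM in SMs. Socs3, Tollip, Tnip3, Cyld and Rnf216 were the remaining extremes of the list in a tissue, with log2 ratios of −0.68 for Socs3 in microglia, −0.88 for Tollip in AMs, 0.86 for Tnip3 in CMs, 0.15 for Cyld in SMs and −0.12 for Rnf216 in KCs. The list counted 2 of 11 higher in microglia (8.34% of all genes were called in either direction), 3 of 9 higher in KCs (4.67%) and 0 called in CMs (1.58%), AMs (11.7%) and SMs (3.48%).

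Transcripts that TLR signalling induces had ratios in both directions. Ccl3, a chemokine for monocytes and T cells, was 1387 CPM in WT and 4662 CPM in Zeb2KO microglia, 5.67 and 33.3 in SMs, 215 and 1076 in AMs, 36.6 and 196 in KCs and 787 and 950.1 in CMs, and 32.6 CPM in the Nr1h3fl/fl WT KCs. Its log2 fold change over the 5 pairs was 1.93 with an adjusted p of 0.197 in edgeR, which did not pass. Ccl4, a related chemokine, was called in microglia, KCs and AMs (2411 and 5823, 38.4 and 199, 83.8 and 345 CPM), Ccl2 in microglia and AMs (292 and 1188, 35.7 and 325 CPM), and Ptgs2, the inducible cyclooxygenase, in microglia and CMs (3.08 and 24.2, 35.3 and 106 CPM). Tnf was 51.5 and 565 CPM in microglia but 264 and 61.1 CPM in AMs, while Il1b was 133 and 602 CPM in microglia, 427 and 1134 CPM in AMs and 1082 and 638 CPM in SMs. Cxcl10, an interferon-induced chemokine, was the lowest of the list in microglia, at 54.2 and 80.4 CPM. Il6, named after its values were seen, was lower in Zeb2KO in all 5 tissues, with log2 ratios that ran from −1.67 in AMs to −0.47 in CMs, of which AMs alone (28.4 and 8.24 CPM) reached 20 CPM, and its edgeR log2 fold change was −1.10 (adjusted p = 0.153). Saa3, an acute-phase protein, was 51.8 and 860.0 CPM in CMs, but it was also 217 CPM in one WT liver library and 0 UMIs in the other. By size, 6 of 8 considered were higher in microglia (8.34% of all genes were called in either direction), 5 of 8 in AMs with 2 lower (11.7%), 2 of 7 in SMs (3.48%), 2 of 8 in KCs (4.67%) and 2 of 11 in CMs (1.58%), with no test of the lists, and 2 of 7 were lower in the Nr1h3fl/fl than in the Zeb2fl/fl WT KCs (1.32%). Against the Nr1h3fl/fl library, 5 of 8 were higher in Zeb2KO KCs (8.29% of all genes were called).

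Over the 5 pairs, 0 genes of the 4 lists passed in edgeR, as 0 of all 13913 genes tested did, so this is no result about the lists. In the same fit 3 of 15 co-receptors and chaperones, 4 of 27 adaptors, 2 of 17 negative regulators and 6 of 15 induced transcripts had an unadjusted p under 0.05, beside 11.6% of all genes tested. The median log2 fold change was 0.00, −0.01, 0.17 and 0.97 for these lists and −0.01 for all genes. Genes that respond to handling of tissue (Fos, Jun, Hspa1a and others, 10 in all) summed to 23360 CPM in WT and 17660 in Zeb2KO microglia, 5420 and 2943 in SMs, 4365 and 4127 in AMs, 1098 and 2008 in KCs and 8823 and 8414 in CMs. Their part in the negative regulators, such as Dusp1 and Nfkbiz, and in the induced transcripts was not tested. The neutrophil marker list summed to 37.8 CPM in WT and 23830 CPM in Zeb2KO AMs, almost all of it S100a8 and S100a9. Of its other genes, Cxcr2 was 2.70 CPM in WT and 178 CPM in Zeb2KO AMs, Csf3r 12.02 and 95.95, Ltf 0.109 and 3.57, Ly6g 0 and 0.322 and Retnlg 0 and 0.134, with Mmp9, Camp and Ngp at 0 in both. The monocyte list summed to 8.53 and 76.7 CPM.

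**Figure D4:**
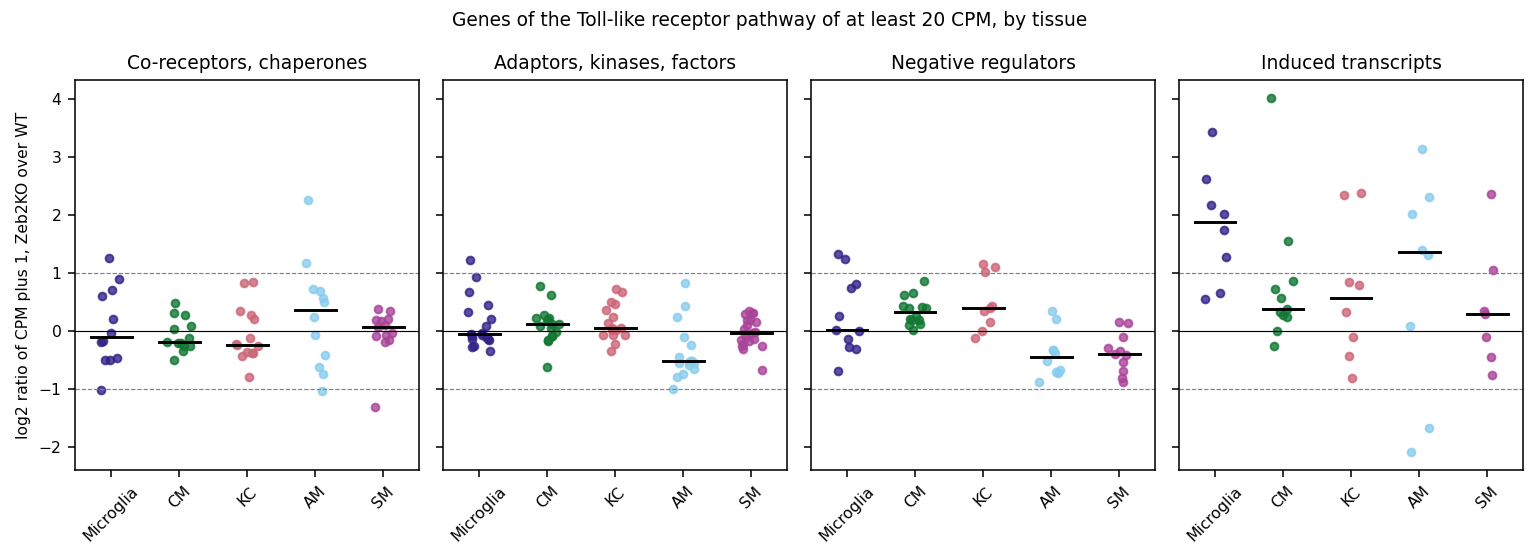
Log2 ratio of CPM + 1 of Zeb2KO over WT for the genes of the 4 pathway lists in the 5 tissues. Points are genes at 20 CPM or more in the higher library and black lines are medians. The induced transcripts have medians of 1.89 in microglia and 1.36 in AMs, and the medians of the other lists lie between −0.52 and 0.40.

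The 7 members that reached 20 CPM in some library (not Tlr5, Tlr8 and Tlr9) were also set beside the 8025 genes at 20 CPM or more in some library, to name those with the most similar levels across the 11 libraries, a description in which libraries of 1 tissue are not independent. Tlr1 was most like B4galt6, Maf and Slc9a9 (Pearson r of 0.985, 0.982 and 0.968 on log2(CPM + 1)) and Tlr2 most like Unc45a, AU020206 and Perp (0.972, 0.966 and 0.957). For Tlr3 these were Slc44a2, Ccnt2 and Pnisr (0.967, 0.961 and 0.953), and for Tlr4 Pik3r4, Unkl and Arl6ip1 (0.977, 0.975 and 0.973). Tlr6 was most like Abl1, Rps6kc1 and Sall2 (0.991, 0.974 and 0.973), and Tlr7 most like Marf1, Pgrmc2 and Prpsap2 (0.945, 0.933 and 0.931). Of these 7, Tlr13 had the lowest leading value, with Apobec3 at 0.938, Zfp36l1 at 0.899 and Slc37a2 at 0.895.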

How the data were processed

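Sorted macs of 5 tissues were profiled in 11 single-cell libraries. The authors demultiplexed and counted the reads with Cell Ranger, mapped them with STAR to mm10 and deposited raw UMI counts for 27998 genes per barcode, which were used as they stand, and the number of barcodes equalled the cell number in the labels. The counts carry no correction for transcript length, and levels were tested within a gene only. Where members are ranked against each other, as Tlr2 and Tlr9 are, the rank is of UMIs counted. How well each transcript was captured was not tested. The genes and lists were chosen with earlier results of these data known.

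Barcodes beyond 3 median absolute deviations in UMIs, genes or, upwards, mitochondrial share were removed (4.66% to 9.22%). Cells of a tissue were clustered in scanpy 1.11.5 with leidenalg 0.10.2 (2000 variable genes, 30 components, 15 neighbours, resolution 0.8, TLR and pathway genes left out), and clusters of other cell types were dropped by marker lists, with limits set after the clusters had been seen (0% to 27.1% of a library). Scrublet called at most 0.0655% of cells as doublets and so did not work here, and removal of the top 5% of scores was tried as an alternative. Libraries shared at most 1.45% of barcodes. UMIs were summed per library and tested with the quasi-likelihood F test of edgeR 4.0.16 (limma 3.58.1, R 4.3.3), after filterByExpr and TMM scaling, with tissue and genotype as terms, Benjamini-Hochberg adjusted over 13913 genes with a threshold of 0.05. DESeq2 1.42.0 was an alternative. The same tissue links the WT and Zeb2KO library of a pair as littermates, not as the same animals, and the labels give no replicate numbers. Tests were checked on simulated data. Within a tissue, a gene with 20 CPM or more in either library was called at a log2 ratio of CPM + 1 of 1 or more in size, with no test. Shares of cells were taken after thinning each cell to 1000 UMIs, and a library at 0 was set to 3 UMIs for a lower bound. At 20 CPM or more the 95% counting interval of a log2 ratio had a half-width of 0.28 at most.

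Named genes were all members, Tlr11, Tlr12 and Zeb2, the genes of each pathway list called in the same direction in at least 2 tissues or with the highest or lowest ratio in a tissue, and the 3 genes most correlated with each member. Gene positions are from GENCODE on GRCm38, and Tlr3 overlaps 1 antisense gene that is not in the tables.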

Additional observations from a re-analysis of the deposited data

Results flagged for a closer look

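The log2 ratio of Tlr7 in microglia, −0.68, stood apart from the other 4 tissues, the nearest of which was −0.16 (KCs). The Tlr13 ratio in CMs, 0.20, stood apart from the others on the low side, the nearest being 0.68 (KCs), and that of Tlr12 in microglia, −3.60, from the nearest of −0.98 (SMs). The 10 members and Tlr12 were looked at in this way. For normal values of equal error, chance gives about 1 such value in 20 groups of this size. The AM ratio of Tlr12 was 0 because both libraries had 0 UMIs. Tlr2 was higher in Zeb2KO microglia (log2 ratio 0.65) and lower in Zeb2KO AMs (−0.60), and the difference between these tissues was not tested. In the cells left out of the comparisons, the 41 cells of the cluster with dendritic cell markers in the Zeb2KO spleen library held 8 UMIs each of Tlr11 and Tlr12, or 31.1 CPM (13.4 to 61.2), against 4.01 CPM of Tlr11 and 9.59 CPM of Tlr12 in the SMs of that library. The 39 such cells of WT spleen held 11.7 CPM (1.42 to 42.4) of Tlr11 and 17.6 CPM (3.63 to 51.5) of Tlr12, which overlapped the Zeb2KO values.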

How the results depend on the processing

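The count of genes shifted over the 5 pairs was 0 in edgeR, 3 with no low-count filter, 1 with the Nr1h3fl/fl WT liver library in place of the Zeb2fl/fl one, 15 with both WT liver libraries, 362 in DESeq2 and 0 to 1 when a tissue pair was left out (1 without the SM pair). The Tlr13 fold change kept its direction in all alternatives and passed in DESeq2 alone, the 1 member to do so. Its adjusted p in edgeR ran from 0.167 to 0.456 with the tissue block and was 0.9999 without it. Small common fold changes turned. Tlr1 became −0.040 with the Nr1h3fl/fl library and −0.0040 with both WT liver libraries and ranged from −0.0035 to 0.15 with a pair left out, and Tlr2 became −0.041 with no tissue block and ranged from −0.084 to 0.19. Tlr4 became −0.021 with total UMIs only and ranged from −0.010 to 0.10, Tlr5 ranged from −0.99 to 0.26 and Tlr9 from −0.10 to 0.41. Of 58 tissue contrasts that passed, 54 to 58 still passed in the alternatives with all tissues, and 0 reversed. With TMM factors 1 member was called by size within a tissue, Tlr13 in AMs (1.09). Of 161 alternative log2 ratios 151 stayed inside the counting interval. The share of WT AMs with Tlr2 was 66.3% at 2000 UMIs and 82.9% not thinned, and only 2 of 10 members kept the same highest library when shares were not thinned.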

Other observations

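Levels also varied between the clusters of a library, which were found without the TLR genes and have no replicates. In Zeb2KO microglia Tlr2 was 272 CPM (258 to 287) in 852 cells of a cluster led by Maff, Spp1 and Il1b and 122 CPM (112 to 132) in 998 cells of a cluster led by Siglecg and Tnfsf8, while Tlr13 was 65.1 CPM (58.3 to 72.6) and 76.0 CPM (68.2 to 84.5) in the same clusters. Tlr2 in WT AMs was 822 CPM (776 to 871) in 364 cells of a cluster led by Ereg, Cxcl3, Tnf and Il6, against 324 CPM (250 to 412) in 53 cells of a cluster led by Hmox1 and Slc11a1.

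In CMs Tlr12 was 150.4 CPM (143 to 158) in 863 WT cells of a cluster led by H2-M2, Lag3 and Cd9, and 122 CPM (110.4 to 135) in 277 Zeb2KO cells of that cluster. In a cluster led by Retnla, C4b and Lyve1 it was 7.04 CPM (3.38 to 12.95) in 185 WT and 5.54 CPM (3.62 to 8.12) in 568 Zeb2KO cells. In other CM clusters Tlr12 was 37.0 CPM in WT and 14.3 CPM in Zeb2KO cells (led by Ccr2 and Clec4b1), 29.2 and 10.6 CPM (Ms4a1 and Ltb), 47.7 and 25.5 CPM (cell cycle genes), and 12.8 and 7.10 CPM (Siglech and Kitl). It was 78.3 and 75.6 CPM in a cluster led by Fabp5 and Il18bp, and 24.3 and 29.1 CPM in one led by F630028O10Rik and Sparc. What part the number of cells per cluster had in the difference between the libraries was not tested.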
